A study of Mus musculus with 17 samples.

Results

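Dopamine is made, packed, taken back up and broken down by the products of a small set of genes, and 8 of them were followed here in mouse brain after a 6-OHDA lesion and after delivery of NDST3. They were chosen by symbol: the synthesis genes Th, Ddc and Gch1, the transporter genes Slc6a3 and Slc18a2, and the breakdown genes Aldh1a1, Maoa and Maob. All 8 were among the 20328 genes of the bulk RNA-seq table and among the 19300 genes that passed its filter on low counts. All 8 were also listed in the scRNA-seq table, whereas the H3K27ac CUT&RUN table and the ATAC-seq table each held a region for 1 of them.

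In a dopaminergic neuron, tyrosine hydroxylase (Th) turns tyrosine into L-DOPA with tetrahydrobiopterin as cofactor, and GTP cyclohydrolase (Gch1) makes the first step of that cofactor. Dopa decarboxylase (Ddc) turns L-DOPA into dopamine, the vesicular monoamine transporter VMAT2 (Slc18a2) loads it into vesicles, and the dopamine transporter DAT (Slc6a3) takes it back from the synapse. Monoamine oxidases A and B (Maoa, Maob) and the aldehyde dehydrogenase Aldh1a1 break it down. Th and Slc6a3 mark catecholamine and dopamine neurons, while Ddc, Slc18a2 and Gch1 also serve serotonin neurons, and the oxidases are found in glia and vessels as well.

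The animals were WT mice of the ICR strain, female and 8 weeks old at surgery. RNA came from 2 sham libraries, 1 library of the 6-OHDA-induced PD model and 2 libraries of the NDST3-treated PD model. 6-OHDA, a toxin that catecholamine neurons take up, was injected on 1 side into the substantia nigra at 10 µg/µl. The NDST3-treated PD model had the same lesion and, 5 days later, 2 µl of an AAV9 vector with the human NDST3 gene into the same region, and the untreated PD model had saline. The vector used a CMV promoter, which is not restricted to a cell type. The labels name the tissue only as brain, so the dissected region is not given by them, and nothing states how many animals a library holds. CUT&RUN had 2 libraries per group and ATAC-seq and scRNA-seq had 1 each. Total counts ran from 51003699 to 70533326 per RNA library. In bulk RNA, fewer dopamine neurons and less RNA per neuron cannot be told apart.

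The promoters of 4 of these genes are printed because their data carry the main results: Th and Slc6a3 fell furthest with the lesion, Slc6a3 and Maoa are the genes with a chromatin region, and Slc18a2 rose furthest among those called with NDST3. Each is the 250 bases before a RefSeq start on GRCm38.p6, read 5′ to 3′ on the strand of the gene. The Slc6a3 window lies within the RefSeq gene span, which begins at chr13:73536128, so the start used is not the first base of that span. Capitals mark matches, on either strand, to 2 of the 6 motifs searched: TGACGTCA, the cyclic AMP response element (CRE), and GGGCGG, the GC box.
Th (chr7:142899996-142900245, minus strand): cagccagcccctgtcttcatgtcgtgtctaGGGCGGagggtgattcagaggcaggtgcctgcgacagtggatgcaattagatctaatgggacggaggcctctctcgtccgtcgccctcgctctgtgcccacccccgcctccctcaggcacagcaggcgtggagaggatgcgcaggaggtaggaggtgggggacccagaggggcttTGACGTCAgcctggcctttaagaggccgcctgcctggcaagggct
Slc6a3 (chr13:73536497-73536746, plus strand): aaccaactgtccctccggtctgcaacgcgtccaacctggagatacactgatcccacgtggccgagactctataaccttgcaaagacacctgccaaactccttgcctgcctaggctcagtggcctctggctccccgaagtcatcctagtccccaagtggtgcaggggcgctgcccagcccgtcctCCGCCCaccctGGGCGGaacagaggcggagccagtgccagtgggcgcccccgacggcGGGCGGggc
Slc18a2 (chr19:59260628-59260877, plus strand): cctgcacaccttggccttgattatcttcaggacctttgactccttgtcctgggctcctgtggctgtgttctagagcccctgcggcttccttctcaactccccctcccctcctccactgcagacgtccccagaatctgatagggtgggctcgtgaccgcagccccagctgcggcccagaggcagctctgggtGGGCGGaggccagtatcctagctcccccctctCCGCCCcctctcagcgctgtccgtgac
Maoa (chrX:16619448-16619697, plus strand): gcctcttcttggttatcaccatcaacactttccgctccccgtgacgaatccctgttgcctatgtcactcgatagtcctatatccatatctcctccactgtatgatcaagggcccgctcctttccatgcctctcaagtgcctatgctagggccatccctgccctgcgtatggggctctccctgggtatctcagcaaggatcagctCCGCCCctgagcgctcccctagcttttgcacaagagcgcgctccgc

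The RefSeq table held 9 promoter windows for 7 of the genes, 2 each for Ddc and Aldh1a1, and none was matched for Maob. Th was the 1 gene with a full CRE before its start, 45 to 38 bases upstream, and 1.55% of all 32851 windows of this length hold that motif. In Slc18a2 a CRE began 4 bases before the start and ran across it, outside the window searched. GC boxes, which 32.7% of all windows hold, lay upstream of Th, Slc6a3, Slc18a2, Gch1 and Maoa. In Slc6a3 there were 3, beginning 66, 55 and 9 bases upstream. The upstream Ddc window had AAAGGTCA, the NBRE that binds NR4A receptors, on the minus strand 73 to 66 bases before the start, overlapping a TATAAA match from 68 to 63, and Gch1 had TATAAA on the minus strand 188 bases before its start. NBRE and TATAAA stood in 1.34% and 12.4% of all windows. The bicoid-type motif TAATCC and the homeodomain motif TAATTA, held by 6.25% and 4.84% of all windows, matched in none of the 9 windows. The printed windows were 64.4% (Th), 66.0% (Slc6a3), 64.0% (Slc18a2) and 56.8% (Maoa) G or C, against a median of 52.4% over all windows. These are matches of letters and not measured binding. On GRCm38 the genes themselves lie at chr7:142892779-142899995 (Th), chr11:11814101-11898144 (Ddc), chr14:47153895-47189413 (Gch1), chr13:73536128-73578672 (Slc6a3), chr19:59260878-59296012 (Slc18a2) and chr19:20492583-20643463 (Aldh1a1). Maoa and Maob are neighbours on the X chromosome, at chrX:16619698-16687812 and chrX:16709281-16817366.

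In sham brain the genes fell into tiers of level, compared per length as TPM, the length-scaled abundance in the deposited table. Aldh1a1 stood at 210 and 206 TPM in the 2 libraries, Ddc at 221 and 185, Th at 158 and 185, and Slc6a3 at 161 and 171. Aldh1a1 lay above Th and Slc6a3 in both libraries, and Ddc lay above Slc6a3. Aldh1a1 overlapped with Ddc, Ddc with Th, and Th with Slc6a3, so these neighbours did not differ beyond their spread. Slc18a2 followed at 108 and 75.4 TPM, clear of the genes above and below it. Maob, at 50.8 and 41.6 TPM, overlapped with Maoa at 42.6 and 38.0, and Gch1 was lowest at 15.0 and 11.7. In the 6-OHDA library the order turned over: Aldh1a1 led with 112 TPM, the 2 oxidases came next, and Th with 2.57 and Slc6a3 with 0.0840 TPM were last.

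The lesion comparison asks how the dopamine system of the PD model differs from sham. After 6-OHDA, 6 of the 8 genes fell, at an adjusted p under 0.05 from edgeR, against 17.1% of all tested genes that were lower by the same rule. They were Th, Ddc, Slc6a3, Slc18a2, Gch1 and Aldh1a1. By a fold rule, a change of 2-fold or more at a raw p under 0.05, 5 of the 8 were lower, against 10.1% of all genes. The median log2 fold change was -2.91 over the 8 genes and -0.0025 over all genes. The test borrows its spread from the replicated groups, because the PD model has 1 library. With a library left out, the share of all genes past the fold rule is not given here. Without either sham library edgeR gave 0 of the 8, and 0 of all genes, an adjusted p under 0.05, although 5 of the 8 still met the fold rule in each case.

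**Figure D1:**
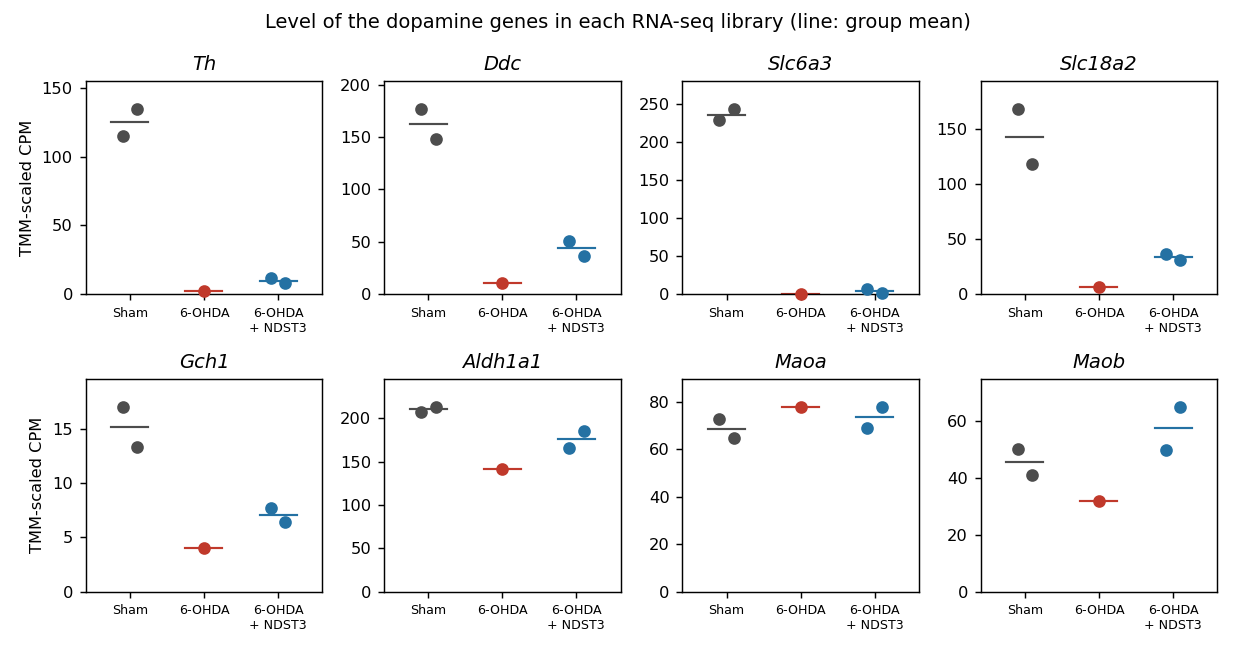
Level of each of the 8 genes in CPM, the count scaled to library size after TMM normalization, 1 panel per gene with its own linear axis from 0, where each point is a library and the line is the group mean. The lesioned library lies under both sham libraries for every gene except Maoa, and how many of all genes lie so was not counted. For Th the lesioned library is at 2.15 CPM against 115 and 135.

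Slc6a3 showed the largest fall of all 19300 genes tested. It had 11759 and 16812 counts in sham and 8 counts in the 6-OHDA library, which is 228, 243 and 0.155 CPM after TMM scaling. The lesioned library was 1523-fold below the sham mean, with a log2 fold change of -10.55 (edgeR, with a standard error of 1.43 and adjusted p = 0.00922). With so few counts the size of that fold is imprecise, and limma on log2(FPKM + 1) gave -5.95 in its place.

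Th was at 115 and 135 CPM in sham and at 2.15 CPM after 6-OHDA, which is 1.72% of the sham mean. The lesioned library lay far outside the sham range, with a log2 fold change of -5.86 (edgeR, with a standard error of 0.33 and adjusted p = 0.00823). Ddc, the next enzyme, retained more, with 177 and 148 CPM in sham and 10.7 CPM after 6-OHDA, or 6.58% of the sham mean. Its log2 fold change was -3.93 (edgeR, with a standard error of 0.28 and adjusted p = 0.00823).

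Slc18a2 went from 168 and 118 CPM in sham to 6.35 CPM, or 4.44% of the sham mean. Its log2 fold change was -4.49 (edgeR, with a standard error of 0.31 and adjusted p = 0.00823). Gch1 was the least affected of the synthesis genes, with 17.0 and 13.3 CPM in sham and 4.07 CPM after the lesion, which is 26.8% of the sham mean. It fell by 1.90 on the log2 scale (edgeR, with a standard error of 0.26 and adjusted p = 0.00958).

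The breakdown genes differed far less. Aldh1a1, an aldehyde dehydrogenase found in a subset of nigral dopamine neurons and in other brain cells, was at 207 and 213 CPM in sham and at 142 CPM in the lesioned library. It fell by 0.57 on the log2 scale (edgeR, with a standard error of 0.12 and adjusted p = 0.0236), and 67.5% of the sham mean remained. Maob, at 50.1 and 41.1 CPM in sham, was at 31.8 CPM, below both, with a log2 fold change of -0.52 and an adjusted p of 0.124 from edgeR. Maoa was the only one of the 8 genes above both sham libraries, at 77.6 CPM against 72.5 and 64.8 (log2 fold change 0.18, with a standard error of 0.13 and adjusted p = 0.340 from edgeR).

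**Figure D2:**
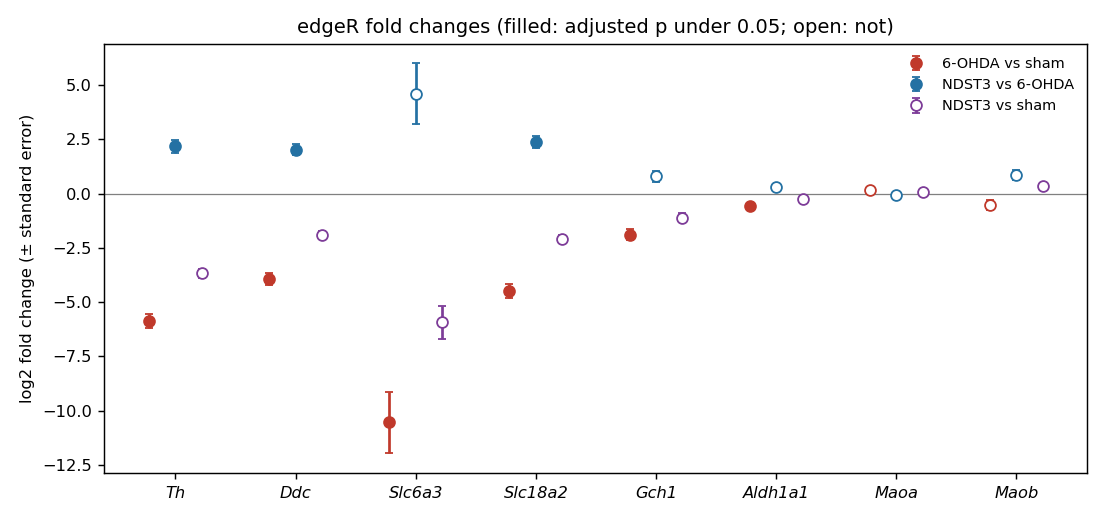
Log2 fold change with its standard error for each gene in the 3 comparisons, from edgeR over all 5 libraries, with filled points for an adjusted p under 0.05. The synthesis and transport genes spread from -10.55 (Slc6a3) to -1.90 (Gch1) after the lesion, whereas Maoa stays within 0.18 of 0 in every comparison.

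The second comparison asks what differed once NDST3 had been given to lesioned animals. With NDST3, 3 of the 8 genes were higher than in the untreated PD model at an adjusted p under 0.05 from edgeR, against 9.06% of all genes: Th, Ddc and Slc18a2. By the fold rule the count was 4 of 8, with Slc6a3 added, against 7.3% of all genes. The median log2 fold change was 1.44 over the 8 genes and 0.0029 over all genes. Both comparisons share the single 6-OHDA library, so a low value there would move them in opposite directions.

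Th stood at 11.5 and 8.03 CPM in the 2 NDST3 libraries, against 2.15 CPM without it. Both were above the untreated library and far under the sham range, with a log2 fold change of 2.18 (edgeR, with a standard error of 0.29 and adjusted p = 0.0320). Ddc was at 50.4 and 36.8 CPM against 10.7, a log2 fold change of 2.03 (edgeR, with a standard error of 0.25 and adjusted p = 0.0320). Slc18a2 was at 36.1 and 31.0 CPM against 6.35, a log2 fold change of 2.40 (edgeR, with a standard error of 0.28 and adjusted p = 0.0320). For these 3 genes the NDST3 mean was 4.54, 4.07 and 5.28 times the untreated value.

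Slc6a3 had 380 and 80 counts with NDST3 and 8 without, or 6.38, 1.34 and 0.155 CPM. Both NDST3 libraries were above the untreated library, but they differed from each other more than for any other of the 8 genes. The log2 fold change of 4.62 had a standard error of 1.39 and an adjusted p of 0.0798 from edgeR. Without NDST3 replicate 2, the lower library, Slc6a3 had an adjusted p of 0.0296 from edgeR, against 0.00264 to 0.247 over all 16 alternatives, and without NDST3 replicate 1 its log2 fold change was 3.09.

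Gch1 was at 7.71 and 6.43 CPM with NDST3 against 4.07 (log2 fold change 0.80, with a standard error of 0.25 and adjusted p = 0.0869 from edgeR). Maob was at 49.8 and 65.2 CPM against 31.8, and its log2 fold change of 0.86 had an adjusted p of 0.0600 from edgeR. The higher Maob library, NDST3 replicate 2, also held most of the choroid plexus RNA, with a summed level of 1133 CPM over 5 choroid plexus markers against 10.6 to 60.1 in the other libraries, and its part in the Maob level was not tested. Of 8 markers of astrocytes, whose cells also hold Maob, 4 rose and 1, Aldoc, fell after 6-OHDA in edgeR. Over all genes 18.8% rose and 17.1% fell. The summed level of the 8 markers was 11814 CPM after 6-OHDA and 5357 to 8020 CPM in the other libraries. Without Gfap, however, it was 5577 against 4784 to 5377 CPM. The part of astrocytes in the Maob level was not tested. Aldh1a1 was at 166 and 185 CPM against 142 (adjusted p = 0.134 from edgeR). Maoa, at 68.7 and 77.9 CPM, had the untreated value of 77.6 within its range.

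The count of 3 depended on the fit. With a library left out, counts are given without the share of all genes called, so they do not single out these 8. Leaving out sham replicate 1, sham replicate 2 or NDST3 replicate 1 left 0 of the 8 genes past the adjusted threshold of edgeR, and leaving out NDST3 replicate 2 left 4. DESeq2 called 6 of the 8, adding Slc6a3, Gch1 and Maob, against 16.3% of the 17175 genes to which it gave an adjusted p.

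The third comparison sets the treated brains beside sham. None of the 8, and no other gene, had an adjusted p under 0.05 from edgeR (0% of 19300), although 2744 genes had a raw p under 0.05. By the fold rule, 5 of the 8 genes were lower than sham, against 1.08% of all genes. DESeq2 called the same number lower, 5 of 8, against 1.21% of the 16781 genes to which it gave an adjusted p, while limma on log2(FPKM + 1) called 0. By both edgeR's fold rule and DESeq2 the 5 were Th, Ddc, Slc6a3, Slc18a2 and Gch1. With each replicate left out, the edgeR log2 fold change ran from -7.46 to -5.23 for Slc6a3 and from -3.96 to -3.47 for Th. It ran from -2.15 to -1.71 for Ddc, -2.33 to -1.81 for Slc18a2 and -1.27 to -0.91 for Gch1.

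Slc6a3 had the lowest log2 fold change of all 19300 genes in this comparison, -5.93 (standard error 0.76 and adjusted p = 0.152 from edgeR). Th, at -3.68 (standard error 0.21 and adjusted p = 0.103 from edgeR), ranked 3 from the lowest. The level with NDST3 was 1.64% ± 1.51 (SD, n = 2) of the sham mean for Slc6a3 and 7.80% ± 1.95 for Th. It was 23.5% ± 2.49 for Slc18a2, 26.8% ± 5.91 for Ddc and 46.7% ± 5.96 for Gch1. None of the NDST3 libraries reached the sham range for these 5 genes, and the share of all genes for which this holds was not counted. Aldh1a1 was at 83.5% ± 6.51, also under both sham libraries. Maoa, at 107% ± 9.44, and Maob, at 126% ± 23.9, overlapped with sham.

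**Figure D3:**
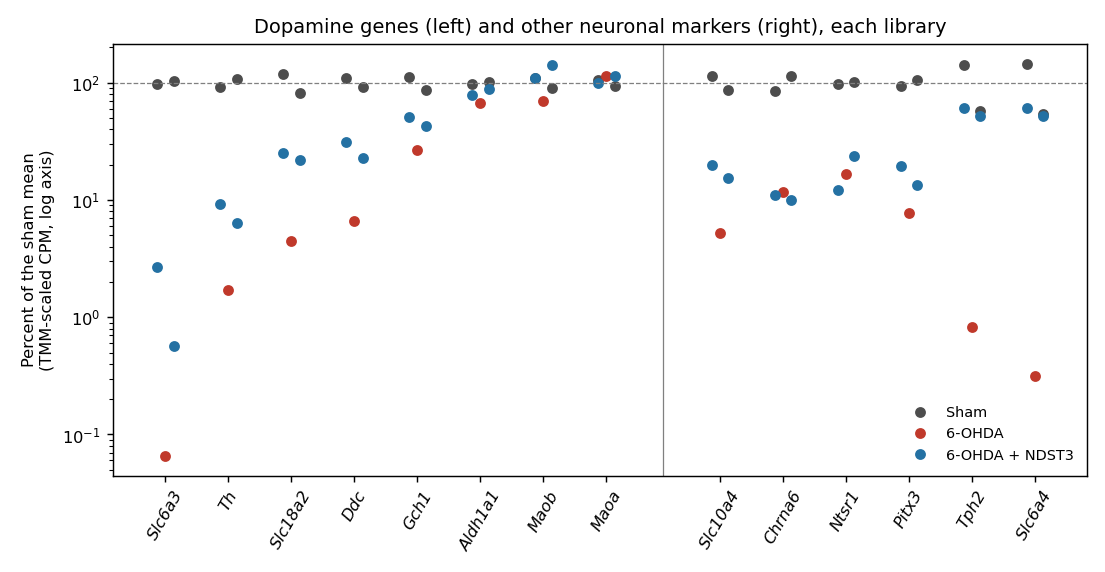
Level of each library as a percent of the sham mean on a log axis, for the 8 dopamine genes (left) and 6 other neuronal genes (right), with 2 points for sham, 1 for 6-OHDA and 2 for NDST3. With NDST3, Slc6a3 and Th stay under 10% of sham, Slc18a2 and Ddc lie between 21.7% and 31.0%, and Tph2 lies between 51.6% and 61.4%.

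Ratios between these genes within a library do not depend on its total count, and they separated the genes further. The ratio of Ddc to Th in TPM was 1.40 and 1.00 in sham, 4.39 after 6-OHDA, and 4.0 and 4.16 with NDST3. The 3 lesioned libraries were thus alike in this ratio and all above sham. The ratio of Slc18a2 to Th moved the same way, from 0.685 and 0.409 in sham to 1.38 after 6-OHDA and to 1.48 and 1.82 with NDST3. Between Slc18a2 and Ddc the ratio stayed within 0.315 to 0.490 in all 5 libraries.

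The ratio of Slc6a3 to Th, near 1 in sham at 1.02 and 0.926, was 0.0327 after 6-OHDA and 0.287 and 0.0750 with NDST3. The transporter had thus lost more than the enzyme in every lesioned library. Gch1 to Th went the other way, from 0.0950 and 0.0631 in sham to 1.21 after 6-OHDA and to 0.432 and 0.515 with NDST3. The ratio of Maob to Maoa was 1.19 and 1.10 in sham, 0.706 after 6-OHDA, and 1.25 and 1.44 with NDST3. With 2, 1 and 2 libraries these ratios are descriptions and were not tested.

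**Figure D4:**
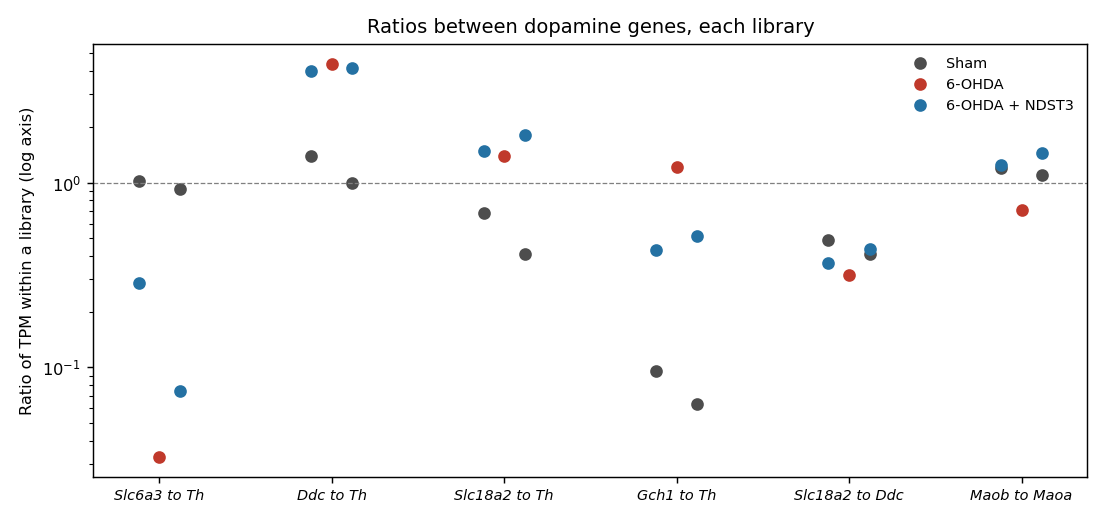
Ratio of TPM between pairs of dopamine genes within each library, on a log axis. The Ddc to Th and Slc18a2 to Th ratios of the 3 lesioned libraries lie above both sham libraries, while the Slc6a3 to Th ratios lie below them.

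The wider monoamine pathway was read from 24 other genes, of which 21 were tested, in 4 groups by role. After 6-OHDA 8 of the 21 fell and 4 rose at an adjusted p under 0.05 from edgeR, where 17.1% of all genes fell and 18.8% rose. With NDST3 against 6-OHDA 4 were higher and 1, Sult1a1, was lower in edgeR, where the shares over all genes were 9.06% and 6.59%. DESeq2 called 7 higher, against 16.3% of the genes to which it gave an adjusted p. It called 3 lower, and that share over all genes was not counted. Against sham 0 of the 21 passed with NDST3 in edgeR, while 4 had a raw p under 0.05, against 14.2% of all genes. DESeq2 called 2, Slc10a4 and Aldh1a7, both lower, against 1.21% of the genes to which it gave an adjusted p.

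Among the 7 genes of the tetrahydrobiopterin cofactor, Gchfr and Pcbd1 fell after the lesion. Gchfr, which encodes the feedback regulator of Gch1, was at 4.06 and 2.46 CPM in sham and at 0.910 CPM after 6-OHDA (log2 fold change -1.84, adjusted p = 0.0321 from edgeR). Pcbd1, which recycles the cofactor, was at 16.7 and 15.5 CPM in sham and 8.87 CPM in the lesioned library (log2 fold change -0.86, adjusted p = 0.0206 from edgeR). With NDST3 none of the 7 passed against 6-OHDA in edgeR. DESeq2 called Gchfr, Pcbd1 and Qdpr in that comparison, where it called 16.3% of all genes with an adjusted p higher.

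Of the 6 other monoamine transporters tested, 5 fell after 6-OHDA. Slc10a4, a vesicular protein of monoamine and cholinergic neurons, went from 52.8 and 40.2 CPM in sham to 2.42 CPM (log2 fold change -4.26, adjusted p = 0.00823 from edgeR) and stood at 9.15 and 7.15 CPM with NDST3 (log2 fold change 1.75 against 6-OHDA, adjusted p = 0.0341 from edgeR). Slc29a4, a low-affinity monoamine transporter, was at 38.7 and 29.9 CPM, then 12.1, then 25.8 and 25, and it passed in both comparisons. Slc22a3, another low-affinity transporter, and Slc18a1, the vesicular transporter of endocrine cells, were low in sham, at 5.13 and 3.27 CPM and at 0.796 and 0.565 CPM. They fell to 1.37 and 0.155 CPM after 6-OHDA (adjusted p = 0.0499 and 0.0384 from edgeR).

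The serotonin genes shared the fall but not the level reached with NDST3. Tph2, the serotonin-making hydroxylase of the brain, was at 165 and 66.6 CPM in sham, 0.949 CPM after 6-OHDA, and 70.9 and 59.6 CPM with NDST3. Slc6a4, the serotonin transporter, was at 124 and 46.3 CPM in sham, 0.271 CPM after 6-OHDA, and 52.3 and 44.2 CPM with NDST3. For both genes the sham libraries differed from each other by more than 2-fold, and the NDST3 libraries overlapped with the lower of them. The log2 fold change of Tph2 was -6.92 after the lesion (adjusted p = 0.00847 from edgeR) and 6.10 with NDST3 against 6-OHDA (adjusted p = 0.0320 from edgeR). The ratio of Tph2 to Th in TPM was 0.971 and 0.335 in sham, 0.295 after 6-OHDA, and 4.2 and 5.05 with NDST3. Because Ddc, Slc18a2 and Gch1 are also used by serotonin neurons, their levels in bulk RNA hold both cell types, and how much came from each was not tested.

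Of the 6 other breakdown genes, 3 rose after the lesion and 3 did not pass the test. Akr1b3 and Akr1a1, which reduce aldehydes, rose by 0.63 and 0.44 (adjusted p = 0.0178 and 0.0371 from edgeR). Sult1a1, a sulfotransferase, was at 25.4 CPM after 6-OHDA and at 9.62 and 7.14 CPM with NDST3 (log2 fold change -1.60, adjusted p = 0.0472 from edgeR). Aldh1a7, a close copy of Aldh1a1 with which reads may be shared, was at 3.53 and 2.88 CPM in sham, 1.03 after 6-OHDA, and 1.24 and 0.653 with NDST3. Its log2 fold change after the lesion was -1.64, with an adjusted p of 0.0629 from edgeR, and all lesioned libraries lay under sham.

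Markers of dopamine neurons that the gene set did not use moved with it in part. All 10 tested fell after 6-OHDA at an adjusted p under 0.05 from edgeR, against 17.1% of all genes. The summed level of the 10 was 173 and 194 CPM in sham and 25.6 CPM in the lesioned library. With NDST3 the sum was 84.5 and 50.6 CPM. Foxa2 and Drd2, 2 of the 10, passed against 6-OHDA at the adjusted threshold of edgeR, against 9.06% of all genes. By the fold rule 4 of the 10 were higher, with En1 and En2 added, against 7.3% of all genes. Foxa2, a factor of midbrain floor plate cells and dopamine neurons, was at 5.03 and 6.03 CPM in sham, 0.232 after 6-OHDA, and 2.69 and 1.76 with NDST3. The dopamine receptor gene Drd2 was at 42.0 and 52.7 CPM in sham, 5.17 after 6-OHDA, and 30.4 and 16.3 with NDST3. The engrailed gene En1, a midbrain factor, was at 20.9 and 20.3 CPM in sham, 1.03 after 6-OHDA, and 15.9 and 4.88 with NDST3 (adjusted p = 0.0560 from edgeR). En2 was at 18.3 and 19.8 CPM in sham, 3.68 after 6-OHDA, and 20.1 and 8.51 with NDST3 (adjusted p = 0.0725 from edgeR). These 4, and also Pitx3 (adjusted p = 0.167 from edgeR) and Nr4a2, were higher in both NDST3 libraries than in the single untreated library. Chrna6 and Lmx1b were lower in both, and Foxa1 and Ntsr1 overlapped. The share of all genes higher in both NDST3 libraries was not counted. The nuclear receptor gene Nr4a2 was at 16.8 and 18.7 CPM in sham, 3.19 after 6-OHDA, and 3.58 and 7.02 with NDST3 (adjusted p = 0.275 from edgeR). Chrna6, a nicotinic receptor subunit of dopamine terminals, was at 28.6 and 38.1 CPM in sham, 3.91 after 6-OHDA, and 3.66 and 3.33 with NDST3. The neurotensin receptor gene Ntsr1 was at 18.5 and 19.3 CPM in sham, 3.14 after 6-OHDA, and 2.30 and 4.47 with NDST3. Pitx3, a transcription factor of nigral dopamine neurons, was at 7.80% of the sham mean after 6-OHDA and at 19.7% and 13.5% with NDST3. For Chrna6, Foxa1, Lmx1b and Ntsr1, values that did not pass the test, the log2 fold change against 6-OHDA lay between -0.25 and 0.25, with adjusted p of 0.578 or more from edgeR.

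Markers of other cells moved with the lesion as well. Over all genes 17.1% fell and 18.8% rose after 6-OHDA at an adjusted p under 0.05 from edgeR. All 6 pan-neuronal markers fell after 6-OHDA, with a summed level of 4832 and 5260 CPM in sham, 1726 CPM after 6-OHDA, and 4096 and 3775 CPM with NDST3. All 8 microglia markers rose, from sums of 497 and 383 CPM to 2683 CPM, with 1021 and 1501 CPM under NDST3. The sum of 5 hypothalamic marker genes, of which Hcrt, Pmch and Oxt rose, was 173 CPM in the 6-OHDA library and 6.48 to 11 CPM in the others. Fibroblast markers summed to 1014 CPM in the 6-OHDA library and to 182 to 334 CPM elsewhere. The part that dissection or cell composition had in the levels of the dopamine genes was not tested, and with 1 library the PD model and its dissection cannot be told apart.

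Outside the list, the genes whose profile over the 5 libraries lay closest to that of Th were Slc10a4, Chrna6, Chrna2, Ntsr1 and Dlk1, by Euclidean distance of log2(CPM + 1) centred on sham among 15515 genes. The distances ran from 2.33 (Slc10a4) to 3.71 (Dlk1). For Slc6a3 the first 4 were the same genes, at 6.34 to 7.63, and the fifth was Tph2 at 7.66. The 15515 genes leave out the 8 dopamine genes and genes with a mean under 1 CPM. Among those compared, none lay nearer to Slc6a3 than 6.34. Maob lay closest to Fhad1, at 0.171, followed by the axonemal dynein genes Dnaic1 (0.197) and Dnah9 (0.198). Maoa lay closest to Cdc23, a subunit of the anaphase-promoting complex, at 0.0169. These are descriptions of likeness over 5 libraries.

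In the H3K27ac table, which marks active chromatin, the 1 region assigned to a dopamine gene lay 211 bases before the start of Maoa. Its signal was 22.7 in sham, 15.4 after 6-OHDA and 21.9 with NDST3, against table medians of 14.9, 16.4 and 22.9. As a ratio of signal plus 1, the lesion gave 0.693, and 14.5% of the 11424 regions had a lower ratio. With NDST3 against 6-OHDA the ratio was 1.39, close to the table's median of 1.31. In that direction nothing can be read from 1 region, because 0 of the 11424 regions had a lower signal with NDST3 than after 6-OHDA. The lesion ratio uses the same 6-OHDA values, so its place among these regions describes this set of regions only. The Maoa RNA of the lesioned library was at 113% of the sham mean. The Maoa promoter printed above holds a GC box 46 bases upstream of its start.

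In ATAC-seq, which measures open chromatin, the 1 region assigned to a dopamine gene lay 886 bases before the start of Slc6a3, with a signal of 24.9 in sham, 8.25 after 6-OHDA and 6.19 with NDST3. The ratio of signal plus 1 was 0.358 after the lesion, lower by at least 2-fold, as in 5.06% of the 3537 regions with values. Against sham the NDST3 library gave 0.278, and 5.91% of regions were lower by at least 2-fold. With NDST3 against 6-OHDA the ratio was 0.777, short of 2-fold, a change that 3.53% of regions showed in that direction. Signal at this region was thus lower in both lesioned libraries, while the Slc6a3 RNA was at 0.0657% and 1.64% of sham. Each ATAC group has 1 library, so no test was possible, and how the tables' regions were picked from the called peaks is not given in the sources used here.

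The scRNA-seq table gives a mean per gene for 9 clusters in the 6-OHDA and NDST3 libraries, as the natural log of 1 plus a normalized count, and the sham library was not analysed here. Of 72 pairs of a dopamine gene and a cluster, 18 had a mean above 0.1 in at least 1 library. Th reached at most 0.00283 and Slc6a3 at most 0.00730 in any cluster, and Slc18a2 stayed at or under 0.0723. The defining markers Pitx3, Drd2, Ntsr1 and Chrna6 were at or under 0.00318, and the neuronal genes Snap25 and Rbfox3 at or under 0.0863 and 0.0224. Of the 6 pan-neuronal markers, 1 exceeded 0.1 in cluster 7 as the mean of both libraries, and it was highest there. Of the 10 dopaminergic markers, 2 exceeded 0.1 in any cluster. Nr4a2, a receptor of dopamine neurons that lymphocytes and other cells also express, did so in all 9 clusters and was highest in cluster 4, at 1.58 in the 6-OHDA library and 2.22 with NDST3, and in cluster 8, at 1.1 in both libraries. Cluster 4 also held the highest level of 10 of 10 T cell markers. Lmx1b was at 0.156 and 0.211 in cluster 2. Th and Slc6a3 were too low in every cluster, clusters 4 and 8 included, to follow their bulk difference in cells.

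**Figure D5:**
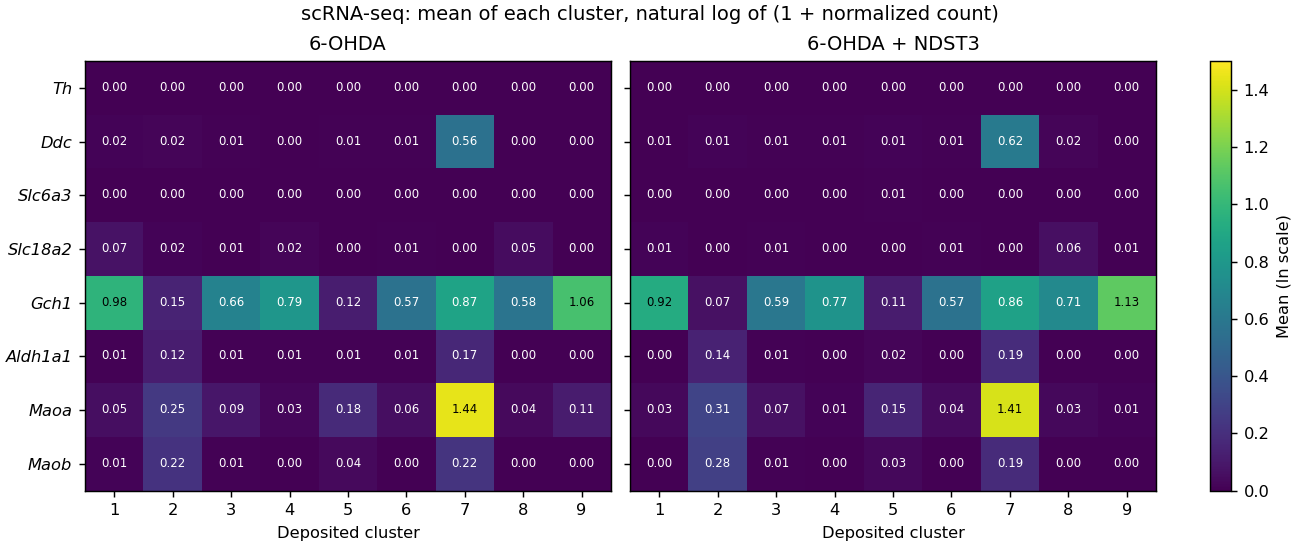
Mean of each dopamine gene in the 9 deposited clusters of the 6-OHDA library (left) and the NDST3 library (right), on a natural-log scale. Ddc and Maoa are highest in cluster 7, at 0.56 and 1.44 in the 6-OHDA library, Gch1 is present in all clusters, and Th and Slc6a3 are near 0 throughout.

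Cluster 7, endothelial-like with all 8 endothelial markers at their highest level there and led by Cldn5, held the highest means of Ddc, Maoa and Aldh1a1. Ddc was at 0.558 in the 6-OHDA library and 0.619 in the NDST3 library, and at most 0.1 in every other cluster. Maoa was at 1.44 and 1.41 there. In bulk RNA the 8 endothelial markers summed to 407 CPM after 6-OHDA and to 243 to 310 CPM in the other libraries, and their part in the bulk Maoa level was not tested. Brain capillary cells are known to carry both enzymes as a barrier to circulating L-DOPA. Maob and Aldh1a1 were above 0.1 only in cluster 7 and in cluster 2, whose leading genes were Dbi, Mt3 and Clu. Cluster 2 was mixed, with the highest level of 5 of 5 choroid plexus, 6 of 7 oligodendrocyte and 6 of 8 astrocyte markers. Maob was at 0.224 and 0.186 in cluster 7 and at 0.221 and 0.282 in cluster 2.

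Gch1 was the gene most widely seen, above 0.1 in all 9 clusters in at least 1 library. Its highest means were in the B cell-like cluster 9, at 1.06 and 1.13, and in the neutrophil-like cluster 1, at 0.978 and 0.924. In the mural-like cluster 5 it was at 0.122 and 0.115. In bulk RNA the summed level of 7 monocyte and macrophage markers was 3944 CPM after 6-OHDA, 913 and 1629 CPM with NDST3 and 255 and 52.4 CPM in sham, and how much of the bulk Gch1 came from such cells was not tested.

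Between the NDST3 and 6-OHDA libraries no dopamine gene differed by 1 or more on the log2 scale in any of the 18 pairs, and none differed by 0.25 or more. Over all genes and clusters, 0.0469% of 63984 such pairs differed by 1 or more and 3.46% by 0.25 or more. The differences of the dopamine genes ran from -0.14 (Maoa in cluster 9) to 0.19 (Gch1 in cluster 8). With 1 library per group there is no error for these differences.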

How the data were processed

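Bulk RNA-seq of 5 mouse brain libraries, H3K27ac CUT&RUN, ATAC-seq and scRNA-seq were read from the deposited tables. The authors trimmed the RNA reads, aligned them to mm10 with HISAT2 and quantified them with StringTie, and deposited a read count, an FPKM and a TPM value per gene. For both chromatin assays the authors gave 1 signal value per group for each region. ATAC-seq peaks were called by the authors with MACS2 and cleared of blacklisted regions. The scaling of the signal is not given in the sources used here, and 2 CUT&RUN libraries stand behind 1 value. The scRNA-seq means were deposited on what their values show to be a natural log scale.

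Counts were tested with edgeR 4.0.16 in R 4.3.3 (TMM factors, filterByExpr, estimateDisp and the package's default quasi-likelihood test) in 1 fit over all 5 libraries, with Benjamini-Hochberg adjustment over 19300 genes. Standard errors were taken as |log2 fold change| over the root of the F statistic. The 6-OHDA library has no replicate and is assumed to vary like the others, and the p-values measure the spread between these libraries, which may be technical. DESeq2 1.42.0, limma 3.58.1, other scalings and filters, a replicate block and each replicate left out were run as alternatives. The fit was also run on simulated counts with 200 changed genes. They were drawn with the fitted spread, so that run cannot check the spread assumed for the 6-OHDA library.

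TPM was used for levels between genes and was not tested. Region ratios were taken after adding 1. A mean above 0.1 counted as detected in scRNA-seq, and 4 rows with 2 repeated, date-like names were left out. Doublets could not be removed from cluster means, and the authors limited them by an upper bound on detected genes per cell. Clusters were named by the marker list with the highest share of its genes at their peak there. The chromatin coordinates were compared with GRCm38, where 3.54% of the H3K27ac and 10.4% of the ATAC regions with a matched gene lie where their stated distance from a RefSeq GRCm38 start would put them, within 1000 bases. No sequence was read by them, and only distances are given.

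The 8 genes, the pathway and marker lists and the rule for genes of like profile were chosen with earlier results of these data known. All 8 were named, with pathway genes past the adjusted threshold (some counted in the totals are not reported here by name), Aldh1a7, and the 5 genes nearest in profile to Th, Slc6a3, Maob and Maoa. Promoters are from RefSeq on GRCm38.p6. Calculations outside R used Python 3.11.15, pandas 2.3.3 and numpy 2.4.6.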

Additional observations from a re-analysis of the deposited data

How the results depend on the processing

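Over 384 refitted log2 fold changes of the 8 genes, 329 kept their direction and their side of the adjusted threshold, 32 lost the call, 20 gained it and 3 turned direction. The 3 were all Maoa, near 0: with NDST3 against 6-OHDA 0.00067 under the crossed block and, leaving out each replicate, from -0.21 to 0.0041 (without NDST3 replicate 1), and against sham from -0.019 (without NDST3 replicate 2) to 0.18. The cause was not tested. For the lesion the number of the 8 genes called lower ran from 0 to 6 with each replicate left out. For NDST3 against 6-OHDA it ran from 0 to 4, was 6 with DESeq2, and was 0 with limma on log2(FPKM + 0.1) and with only the 2 groups compared. For NDST3 against sham it ran from 0 to 3 with each replicate left out, and was 5 with DESeq2 and 5 by the fold rule. Leaving out a sham or NDST3 library leaves 1 library in that group, which is then assumed to vary like the others. The counts with a library left out are given without the share of all genes called under the same fit.

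The replicate block, with the numbers of the titles, gave 5, 0 and 0 of the 8 genes called in the lesion, NDST3 against 6-OHDA and NDST3 against sham comparisons, where the fit without it gave 6, 3 and 0. Equal numbers did not deviate together (r = -0.43 over genes between the first sham and the first NDST3 library), so the numbers were also crossed, a choice made after seeing the data, which gave 7, 4 and 5. The counts under both blocks are given without the share of all genes called, so they do not single out the 8 genes. The default fit of this edgeR version is the legacy fit planned as an alternative, and the newer fit, added after seeing the data, gave the same 6, 3 and 0.

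With 0.1 and 5 added in place of 1, the Maoa H3K27ac ratios were 0.681 and 0.738 for the lesion, 1.42 and 1.32 for NDST3 against 6-OHDA, and 0.965 and 0.971 against sham. The Slc6a3 ATAC ratios were 0.335 and 0.444, 0.753 and 0.845, and 0.252 and 0.375. The scRNA-seq count of differing pairs was 0 under both size rules. In TPM and FPKM, Aldh1a1 with NDST3 was 70.9% and 74.0% of sham in place of 83.5%. The other 22 values of this kind moved by less than 1 SD. The depth was ample except for Slc6a3 after 6-OHDA, at 8 counts.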
